A study of Mus musculus with 24 samples.

Results

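The comparison described here is the dependence of the liver's response to a high fat diet on the loss of both c-Jun N-terminal kinases, JNK1 (gene Mapk8) and JNK2 (gene Mapk9). It was read as an interaction: the change on high fat in livers lacking both kinases minus the change on high fat in control livers. Liver RNA was sequenced from C57BL/6J mice that all carried AlbCre, a Cre recombinase under the albumin promoter, which acts mainly in hepatocytes and can act in bile duct cells, which share a precursor with them. Control mice were labelled wild type (AlbCre+), and double-deficient mice were labelled as a knock down (AlbCre+ Jnk1flox/floxJnk2flox/flox). Each genotype was given chow or the high fat diet over 16 weeks, while the labels at hand give neither age nor sex. The 4 groups had 3 libraries each, so that the comparison used 12 of the 24 libraries of the series. The remaining 12 came from mice with Jnk1flox/flox alone or Jnk2flox/flox alone on the same diets, and they enter the estimate of the spread and the comparison with single kinase loss. Nothing in the labels says whether the 3 libraries of a group came from separate animals, so p-values measure the spread between libraries, which may be technical in part.

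JNKs are stress-activated protein kinases. They are switched on in liver by saturated fatty acids, inflammatory cytokines and endoplasmic reticulum (ER) stress, they phosphorylate the AP-1 transcription factors and components of insulin signalling, and liver JNK is known for restraining the fatty acid oxidation programme driven by the nuclear receptor PPARα and its target hormone FGF21. A high fat diet exposes hepatocytes to a sustained lipid load, which in mouse liver is accompanied by lipid storage, inflammation and changed secretion of plasma proteins. The question posed by the design is which of these responses to diet depend on JNK.

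The floxed genes were read in every library first. Mapk8 stood at 5.02, 5.77 and 4.76 FPKM on chow and 4.12, 4.56 and 4.19 on high fat in control, and 1.99, 1.9 and 2.47 on chow and 1.03, 0.845 and 1.49 on high fat in double-deficient livers. All double-deficient livers were below all controls, on both diets. Mapk9 stood at 9.83, 9.19 and 10.8 FPKM on chow and 11.8, 10.3 and 10.9 on high fat in control, and 6.61, 6.04 and 6.46 on chow and 4.81, 4.33 and 4.73 on high fat in double-deficient livers. The double-deficient libraries were again below all controls, and RNA of both genes remained in each of them. FPKM (fragments normalised to transcript length and library size) is summed over the whole locus, so it does not separate deleted from intact exons, and RNA from cells in which AlbCre is silent is included. The loss of Mapk9 RNA was deeper on high fat (interaction -0.53 ± 0.13 on the log2 scale, ± SE, adjusted p = 0.00386), but not by a called amount after removal of a length trend described next (adjusted p = 0.116), and the interaction of Mapk8 was -0.34 ± 0.16 (adjusted p = 0.101).

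The 3 double-deficient libraries on high fat stood apart from the other 21 of the series in a property of the transcripts. Across genes, the deviation of each of them from the mean of all libraries fell with transcript length, with Spearman's rho of -0.605, -0.66 and -0.6, whereas the other libraries ranged from -0.253 to 0.421. Their FPKM summed to 849038, 873399 and 852069, above the 634849 to 734352 of all others. Because the interaction rests on these libraries, it followed length too: its median was 0.549 in the shortest of 10 equal length bins, where 429 loci were called higher and 4 lower, and -0.537 in the longest bin, with 15 higher and 598 lower. Values are as deposited unless stated otherwise, and calls and counts are set beside those made after a smooth trend on transcript length was taken out of each library, which left a rho of -0.00175 between the interaction and length. The length trend and the double-deficient high fat group cannot be told apart, and the removal also takes away any change in expression that itself follows length. Libraries also differed in traces of other tissues. The double-deficient high fat replicate 3 held skeletal muscle transcripts summing to 1044 FPKM over 13 genes, against 0.039 to 4.1 in the other 11 libraries, and the control chow replicate 3 held pancreatic acinar transcripts summing to 1194 FPKM over 12 genes, against 4.75 to 90. Of 13 loci of hepatocyte markers, 12 reached at least 10 FPKM in all 12 libraries, and that of Alb, the albumin gene, did so in 11 and was listed at 0 in control chow replicate 1, a value that can be a failed estimate.

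**Figure D1:**
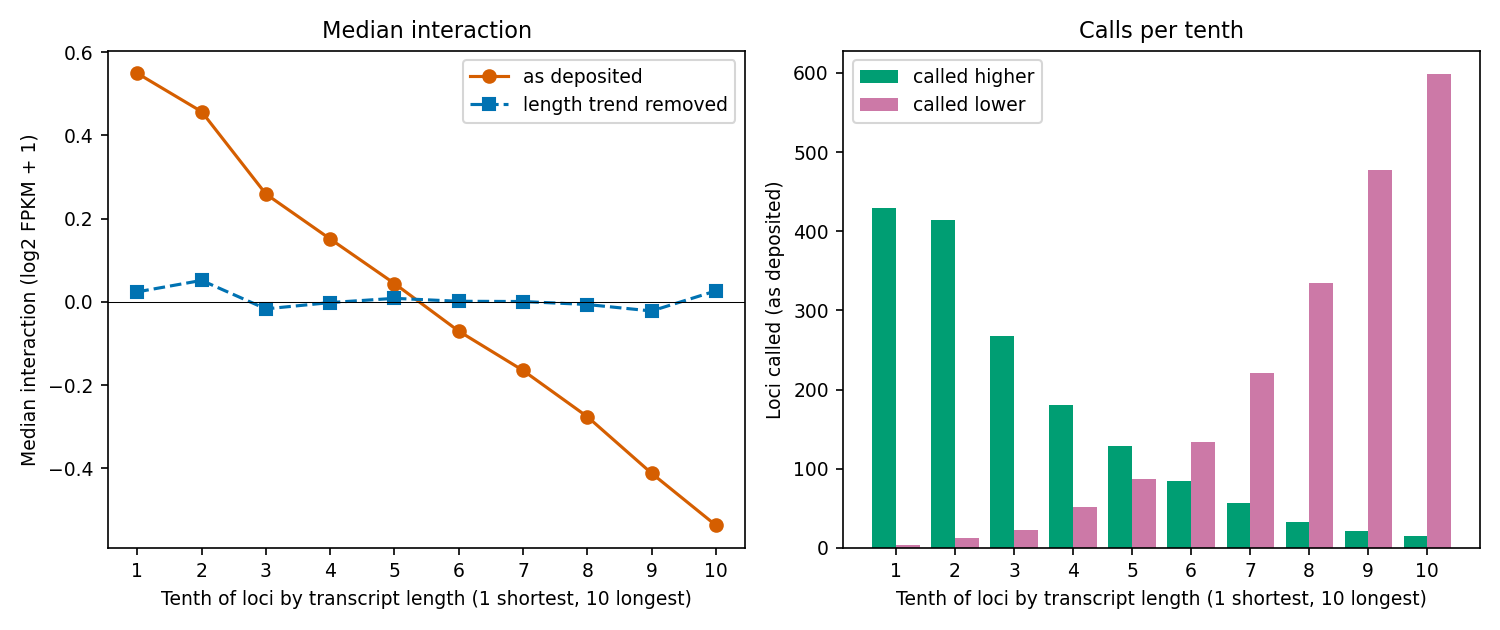
Left, median interaction (log2 FPKM + 1, vertical axis) in 10 bins of loci ordered by transcript length (horizontal axis), as deposited (circles) and with the length trend removed (squares); right, number of loci called higher or lower per bin, as deposited. The median runs from 0.549 in the shortest to -0.537 in the longest bin as deposited and lies near 0 in all bins once the trend is removed.

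The response to high fat differed between the genotypes at 3664 of 10562 loci tested (34.7%), with 1672 higher (15.8%) and 1992 lower (18.9%) in the double-deficient response, at an adjusted p under 0.05 in limma. With the length trend removed, 2092 of 10193 loci were called (20.5%), 1083 higher (10.6%) and 1009 lower (9.9%). Both analyses called 1437 loci in the same direction (14.1%, 656 higher, 6.44%, and 781 lower, 7.66%), which is 39.2% of the loci called as deposited and 68.7% of those called with the trend removed, and 3 loci in opposite directions. These loci are referred to below as called in both analyses. Counts in gene groups below stand against these shares: 15.8% higher and 18.9% lower as deposited, 6.44% and 7.66% in both. A trend on GC content was also removed together with that on length. Calls made as deposited and lost there include those of C1qa, Cp, Fgf21, Gm10680, Hal, Ifih1, Irf7, Isoc2b, Mapk9, Samd9l, Stard4 and Tmsb10. The list is not complete: with both trends removed no AP-1 or immediate early gene was called, Jund included. The diet itself changed 1722 loci in control livers (16.3%), 1079 up (10.2%) and 643 down (6.09%), 1127 without control chow replicate 2, 1056 without control chow replicate 3 and 1089 without control high fat replicate 2. Its share of increases, 62.7%, became 48.7% with size factors and 47.6% with quantile normalization. In double-deficient livers the diet changed 6020 loci (57%), 3190 of them upward (30.2%). Loss of the kinases changed 16 loci on chow (0.151%), 3 upward (0.0284%) and 13 downward (0.123%), so that 18.8% rose against 33.3% with quantile normalization, 9 without double-deficient chow replicate 1 and 10 without control chow replicate 3. On high fat it changed 5406 (51.2%), of which 38.3% rose as deposited, 49.8% with size factors and 48.9% with quantile normalization. Of the 3664 loci of the interaction, 3386 were called between genotypes on high fat and 6 on chow.

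Loci called in the interaction were sorted by what the diet did in each genotype. The largest class, 2860 loci as deposited and 1362 with the length trend removed, responded to diet only in double-deficient livers by the test in each genotype (gained). In 316 loci (414 with the trend removed) a called response of the control was no longer called without the kinases (lost), and in 197 (140) the response was called in opposite directions (reversed). A further 90 (50) responded more strongly in the same direction (enlarged), 21 (14) responded less (reduced), and 180 (112) passed the test of neither diet response. Of these, 893 gained, 126 lost, 67 reversed, 23 enlarged and 7 reduced loci fell in the same class in both analyses. The smaller classes depended on single libraries. Lost loci numbered 205 without control chow replicate 2 and 204 without control high fat replicate 1. Reversed loci numbered 118, 99 and 120 without control chow replicate 1, 2 or 3 and 90 without control high fat replicate 1. Enlarged loci numbered 29, 39 and 37 without control chow replicate 1, 2 or 3, 45, 42 and 39 without control high fat replicate 1, 2 or 3, and 136 without double-deficient high fat replicate 1.

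**Figure D2:**
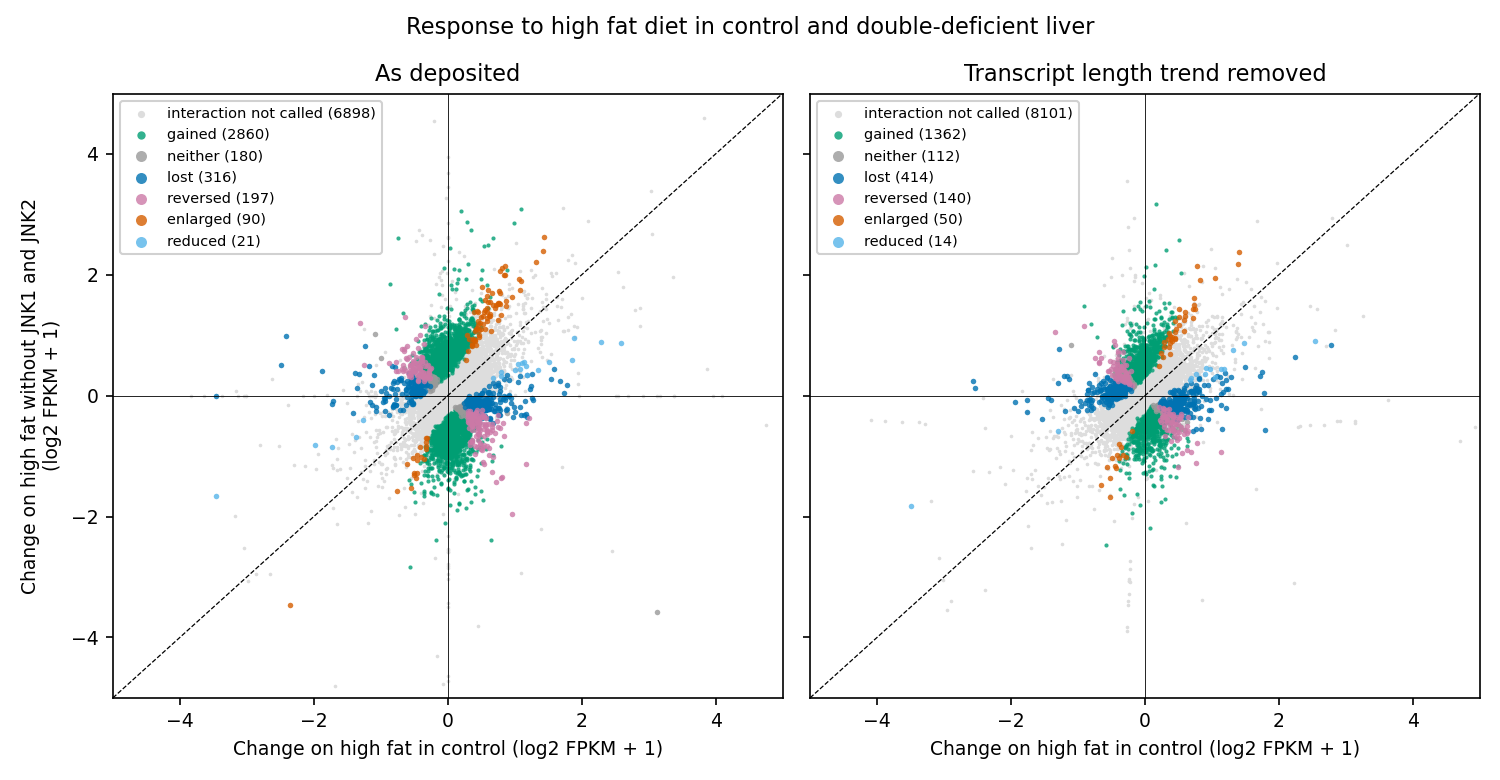
Change on high fat in control (horizontal axis) against the change in double-deficient livers (vertical axis), both on the log2 (FPKM + 1) scale, for each locus, as deposited (left) and with the length trend removed (right); colours give the class of called loci, the dashed line marks equal responses, and 8 loci lie beyond the axes in each panel. Gained loci (2860 and 1362) lie along the vertical axis, lost loci (316 and 414) along the horizontal axis and reversed loci (197 and 140) in the upper left and lower right.

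Loci of each class are named by the size of the interaction, among called loci without overlap between genotypes on high fat. For these, the lack of that overlap and the small p-values follow from the choice. Among the named loci, Fn1, which encodes the matrix and plasma protein fibronectin, was a reversed gene. It stood at 143, 135 and 137 FPKM on chow and 279, 232 and 221 on high fat in control, and 164, 181 and 187 on chow and 78.1, 59.1 and 72.2 on high fat in double-deficient livers. Control livers on high fat were above all others and double-deficient livers on high fat below all others (interaction -2.15 ± 0.22, adjusted p = 5.19e-06, 2.09e-05 with the length trend removed). Mug2, a murinoglobulin protease inhibitor of plasma, stood at 38.8, 36.1 and 44 FPKM on chow and 75.4, 64.6 and 67.5 on high fat in control, and 38.2, 40.4 and 41 on chow and 14.5, 14.7 and 15.2 on high fat in double-deficient livers. It was also highest in controls on high fat and lowest in double-deficient livers on high fat, without overlap (interaction -2.16 ± 0.19, adjusted p = 1.21e-06). Fam195a reversed the other way, from 60.5, 58.8 and 59.6 FPKM on chow to 34.9, 41.5 and 38 on high fat in control and from 55.2, 48.2 and 48.3 to 109.6, 143 and 126 in double-deficient livers (interaction 1.93 ± 0.18, adjusted p = 3.19e-06). Ppp1r3g, a glycogen-targeting subunit of protein phosphatase 1, was near 0 in controls on high fat (0.0599, 0.117 and 0.0612 FPKM) and 4.08, 8.98 and 2.28 in double-deficient livers on high fat (interaction 2.51 ± 0.58, adjusted p = 0.00337).

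Igfbp2, a secreted binding protein for insulin-like growth factors, was a lost gene with a large interaction. It stood at 841, 822 and 877 FPKM on chow and 192, 212 and 299 on high fat in control, and 728, 899 and 681 on chow and 1149, 996 and 895 on high fat in double-deficient livers. The diet lowered it in every control library below every other library, and the lowest double-deficient library stood at 681 FPKM (interaction 2.28 ± 0.43, adjusted p = 0.000759, 0.0106 with the length trend removed). Slc41a2, a magnesium transporter, rose on high fat in controls from 2.96, 3.11 and 2.38 to 13, 8.99 and 13.7 FPKM and was at 2.2, 1.59 and 2.25 on chow and 2.42, 1.87 and 2.04 on high fat without the kinases. The control libraries on high fat were above all others (interaction -1.70 ± 0.24, adjusted p = 8.41e-05). Cib3 (3.41 ± 0.66), Gm15441 (3.01 ± 0.52), Anapc5 (2.07 ± 0.50) and Cox6b2 (1.76 ± 0.26) were lost in the other direction: they fell on high fat in controls and did not pass the test in double-deficient livers. The transcript Gm15441, annotated antisense to Txnip and overlapping it, so that reads of either could be counted for the other, was at 1.76, 1.71 and 0.568 FPKM in controls on high fat and 24.2, 25.2 and 19.2 in double-deficient livers on the same diet.

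Other loci responded to diet without the kinases only. Krt23, a keratin, went from 3.06, 1.62 and 3.43 FPKM on chow to 6.38, 8.78 and 10.4 on high fat in double-deficient livers and from 2.26, 1.99 and 4.44 to 1.35, 1.15 and 1.63 in control (interaction 2.04 ± 0.43, adjusted p = 0.00159). It is also a marker of bile duct cells, whose 15 marker genes summed to 234, 262 and 277 FPKM in double-deficient livers on high fat and 204 to 263 FPKM in the other libraries, and the part of those cells was not tested. Cgref1 went from 2.12, 1.91 and 1.81 to 16.7, 11.7 and 16.9 FPKM, while no control library exceeded 2.13 FPKM (interaction 2.40 ± 0.56). Tmem86a, a lysoplasmalogenase, had an interaction of 1.91 ± 0.45. Gained in the downward direction were Mia2 (-2.09 ± 0.32), which serves the export of large secretory cargo from the ER, Prox1 (-2.13 ± 0.40), a hepatocyte transcription factor, Sntb1 (-2.06 ± 0.42), Lmbrd2 (-2.24 ± 0.29) and F830016B08Rik (-2.10 ± 0.51). Prox1 stood at 8.72, 10.2 and 12.8 FPKM on chow and 16.3, 13.9 and 9.25 on high fat in control, and 9.78, 10.5 and 13.2 on chow and 2.46, 1.57 and 3.19 on high fat in double-deficient livers. Its highest double-deficient library on high fat, 3.19 FPKM, was below the lowest of all others, 8.72. Of the enlarged loci, Tlr12, a Toll-like receptor, rose in controls from 3.64, 3.26 and 2.74 to 7.04, 5.43 and 6.61 FPKM and in double-deficient livers from 1.97, 2.74 and 2.53 to 12.3, 12.7 and 16.5 (interaction 1.31 ± 0.26, adjusted p = 0.000932). Pnldc1 (1.18 ± 0.28), Tmsb10 (1.29 ± 0.22) and Isoc2b (1.15 ± 0.27) were enlarged in the same direction, and Pnldc1 was not called with a pseudocount of 0.1 or 0.01.

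ER chaperones and other genes of the unfolded protein response, the programme that adjusts the folding capacity of secretory cells, moved downward in the interaction. Of 23 loci tested, 14 were lower and 0 higher, 11 of them lower in both analyses (18.9% and 7.66% of all loci). Each count with 1 library left out was also 14. The median interaction of the group was -0.727, and -0.829 with the length trend removed, against -0.002 and 0.006 over all loci. The median change on high fat was 0.271 in control and -0.377 in double-deficient livers.

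The promoters of these genes are known for the ER stress response element, to which ATF6 binds together with NF-Y. The element, read as CCAAT and CCACG with 9 bases between them and searched on both strands, was present in the RefSeq window from 250 bases before to 50 after the start in 37 of 27025 mouse genes (0.137%) and in 8 of the 20 genes of the group that have a window there (40%). Of the 8 with the element, 5 were lower and the median interaction was -0.703, and of the 12 without it 7 were lower with a median of -0.573. Outside the group 6 tested genes held it, and 2 of them were lower, Acnat2 and Hnrnpa3, named after their values were seen. With the length trend removed Hnrnpa3 was not called (adjusted p = 0.466), whereas Acnat2 was (0.00499), as were Derl3 (0.0299) and Alg12 (0.0285). The 3 members below are shown as examples of those that hold the element and were called in both analyses, and their interactions follow. Each sequence is the 250 bases before the RefSeq start site in GRCm38.p6, 5′ to 3′ on the strand of the gene, with matches on either strand in capitals. Hspa5 lies on the plus strand at chr2:34771840-34772089, Hsp90b1 on the minus strand at chr10:86705445-86705694 with 2 matches, and Canx on the minus strand at chr11:50325674-50325923. A match is a description of letters and does not show a site in use.
Hspa5: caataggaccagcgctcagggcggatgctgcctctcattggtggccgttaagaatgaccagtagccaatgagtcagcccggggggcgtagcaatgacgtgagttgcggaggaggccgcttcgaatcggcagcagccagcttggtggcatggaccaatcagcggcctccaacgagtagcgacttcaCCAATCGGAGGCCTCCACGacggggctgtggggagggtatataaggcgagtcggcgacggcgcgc
Hsp90b1: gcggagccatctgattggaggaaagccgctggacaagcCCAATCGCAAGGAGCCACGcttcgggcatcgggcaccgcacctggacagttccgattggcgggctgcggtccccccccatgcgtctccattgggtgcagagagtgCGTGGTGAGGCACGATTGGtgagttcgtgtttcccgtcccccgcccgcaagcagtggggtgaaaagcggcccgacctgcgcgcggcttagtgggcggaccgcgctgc
Canx: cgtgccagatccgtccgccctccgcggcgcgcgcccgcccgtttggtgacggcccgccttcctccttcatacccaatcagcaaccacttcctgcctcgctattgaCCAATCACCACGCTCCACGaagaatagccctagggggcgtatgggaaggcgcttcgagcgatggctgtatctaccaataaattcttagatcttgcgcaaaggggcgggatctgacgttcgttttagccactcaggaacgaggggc

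Hspa5 encodes BiP, the main chaperone of the ER lumen. It stood at 223, 170.4 and 224 FPKM on chow and 246, 244 and 264 on high fat in control, and 188, 220.4 and 234 on chow and 97.6, 118 and 122 on high fat in double-deficient livers. The 3 double-deficient libraries on high fat were the lowest of the 12, with no overlap (interaction -1.22 ± 0.22, adjusted p = 0.000467, 0.0033 with the length trend removed). Hsp90b1, the ER form of HSP90, stood at 191, 156 and 174 FPKM on chow and 207, 192 and 217 on high fat in control, and 219, 195 and 216 on chow and 122, 119 and 126 on high fat in double-deficient livers. Again the double-deficient libraries on high fat were below all others (interaction -1.01 ± 0.14, adjusted p = 5.59e-05). Canx, the lectin chaperone calnexin, went from 52.6, 51.4 and 52.2 FPKM on chow to 30.6, 30.1 and 32.2 on high fat in double-deficient livers and was between 47.2 and 59.4 FPKM in the control libraries (interaction -0.98 ± 0.12, adjusted p = 3.24e-05). Among the sensors, Ern1, which encodes the kinase and RNase IRE1α, had an interaction of -1.56 ± 0.20 (adjusted p = 3.5e-05), with 1.43, 1.08 and 2.36 FPKM in double-deficient livers on high fat and at least 4.81 in all other libraries. Sel1l, an adaptor of ER-associated degradation, had -1.32 ± 0.17 (adjusted p = 3.64e-05). Atf6 (adjusted p = 0.000337) and Eif2ak3, the sensor PERK (adjusted p = 0.00694), were lower as deposited, and Eif2ak3 was not called with the length trend removed (adjusted p = 0.138). Pdia3 and Pdia4, protein disulfide isomerases, were reversed. Pdia4 rose in control from 55, 41.7 and 53.7 to 76.4, 61.4 and 67.9 FPKM and fell in double-deficient livers from 58.9, 57.5 and 55 to 37, 46.1 and 46.9. The 13 tested targets of the other arm of the stress response, through ATF4 and CHOP, gave 2 higher and 0 lower, 1 higher in both analyses, against 15.8% of all loci higher as deposited. The count of higher loci was 4 without control high fat replicate 3 and 1 without control chow replicate 3, control high fat replicate 1, double-deficient chow replicate 3 or double-deficient high fat replicate 2 or 3. Atf4 itself on high fat measured 32.9, 30.4 and 41 FPKM in control livers against 48.3, 57.9 and 53.6 in double-deficient livers (interaction 0.99 ± 0.18, adjusted p = 0.000391).

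Acute phase proteins, which hepatocytes secrete into plasma in inflammation, gave 10 lower and 0 higher of 27 tested, and all 10 were lower in both analyses. The median interaction was -0.734, and -1.04 with the length trend removed. The count was 7, with a median of -0.398, when control chow replicate 3 and double-deficient high fat replicate 3, the libraries with pancreatic and muscle transcripts, were both left out. Steap4, a metalloreductase, stood at 12.8, 12.8 and 14.8 FPKM on chow and 77.2, 91 and 88.8 on high fat in control, and 17, 15.7 and 19 on chow and 32.6, 29.4 and 35.7 on high fat in double-deficient livers. The diet raised it in both genotypes, and the control libraries on high fat lay far above the double-deficient ones (interaction -1.70 ± 0.36, adjusted p = 0.00169). Fga, the fibrinogen α chain, stood at 945, 833 and 899.6 FPKM on chow and 1477, 1340 and 1415 on high fat in control, and 1138, 876 and 1003 on chow and 786, 676 and 646 on high fat in double-deficient livers. Its control libraries on high fat were above all others and its double-deficient libraries on high fat below all others (interaction -1.17 ± 0.23, adjusted p = 0.000842). Itih4, an inter-α-trypsin inhibitor heavy chain, rose from 369, 452 and 352 to 984, 850.1 and 943 FPKM in control and went from 441, 512 and 482 to 619, 462 and 533 without the kinases (interaction -1.09 ± 0.26, adjusted p = 0.00309). Saa4, a constitutive serum amyloid A, rose in both genotypes and less in double-deficient livers (interaction -1.40 ± 0.47, adjusted p = 0.0273). Fgb (-0.89), Fgg (-0.73), Lbp (-0.97), Cp (-1.02), Itih3 (-1.18) and Serpina3n (-0.90) completed the 10.

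STAT3 is the transcription factor through which interleukin-6 switches on acute phase genes. Its palindromic site, TTCNNNGAA, read the same on both strands, was present in the RefSeq windows of 7 of 23 acute phase genes (30.4%) and 9.55% of all genes. Of the 7 with the letters 4 were lower (median interaction -0.891), and of the 16 without them 5 were lower (median -0.761). The windows of Fga and Steap4 are shown, as above with the match in capitals, as examples of genes that hold the letters and were called in both analyses. Fga lies on the plus strand at chr3:83025903-83026152 and Steap4 on the plus strand at chr5:7960222-7960471.
Fga: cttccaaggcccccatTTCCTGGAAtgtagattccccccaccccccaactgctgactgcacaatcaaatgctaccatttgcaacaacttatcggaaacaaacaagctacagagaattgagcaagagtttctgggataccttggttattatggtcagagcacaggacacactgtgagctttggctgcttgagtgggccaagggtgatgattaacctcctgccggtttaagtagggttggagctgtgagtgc
Steap4: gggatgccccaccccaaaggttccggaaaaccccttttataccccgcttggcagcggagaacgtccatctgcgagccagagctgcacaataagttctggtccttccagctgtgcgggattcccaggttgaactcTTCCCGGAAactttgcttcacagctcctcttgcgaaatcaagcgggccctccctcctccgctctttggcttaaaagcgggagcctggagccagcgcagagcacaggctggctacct

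Complement and coagulation factors, also made by hepatocytes for plasma, gave 14 lower and 1 higher of 28 tested, 13 and 0 in both analyses. The median change on high fat was 0.31 in control and -0.271 in double-deficient livers. C3, the central complement component, stood at 931, 1027 and 1004 FPKM on chow and 1541, 1251 and 1227 on high fat in control, and 1020, 1253 and 1194 on chow and 557, 355 and 489 on high fat in double-deficient livers. The double-deficient libraries on high fat lay below all others (interaction -1.76 ± 0.27, adjusted p = 0.000117). F5, coagulation factor V, had an interaction of -1.76 ± 0.23 (adjusted p = 4.14e-05), with 34.2, 22.5 and 27.9 FPKM in double-deficient livers on high fat against 97.2, 76.4 and 75.5 in control. Plg, plasminogen (-0.77 ± 0.15), and F9, coagulation factor IX (-0.59 ± 0.13), were reversed in both analyses. Masp1, a protease of the lectin pathway, had -1.29 ± 0.24. The higher locus, C8g (0.63 ± 0.22), was not called with the length trend removed (adjusted p = 0.539).

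**Figure D3:**
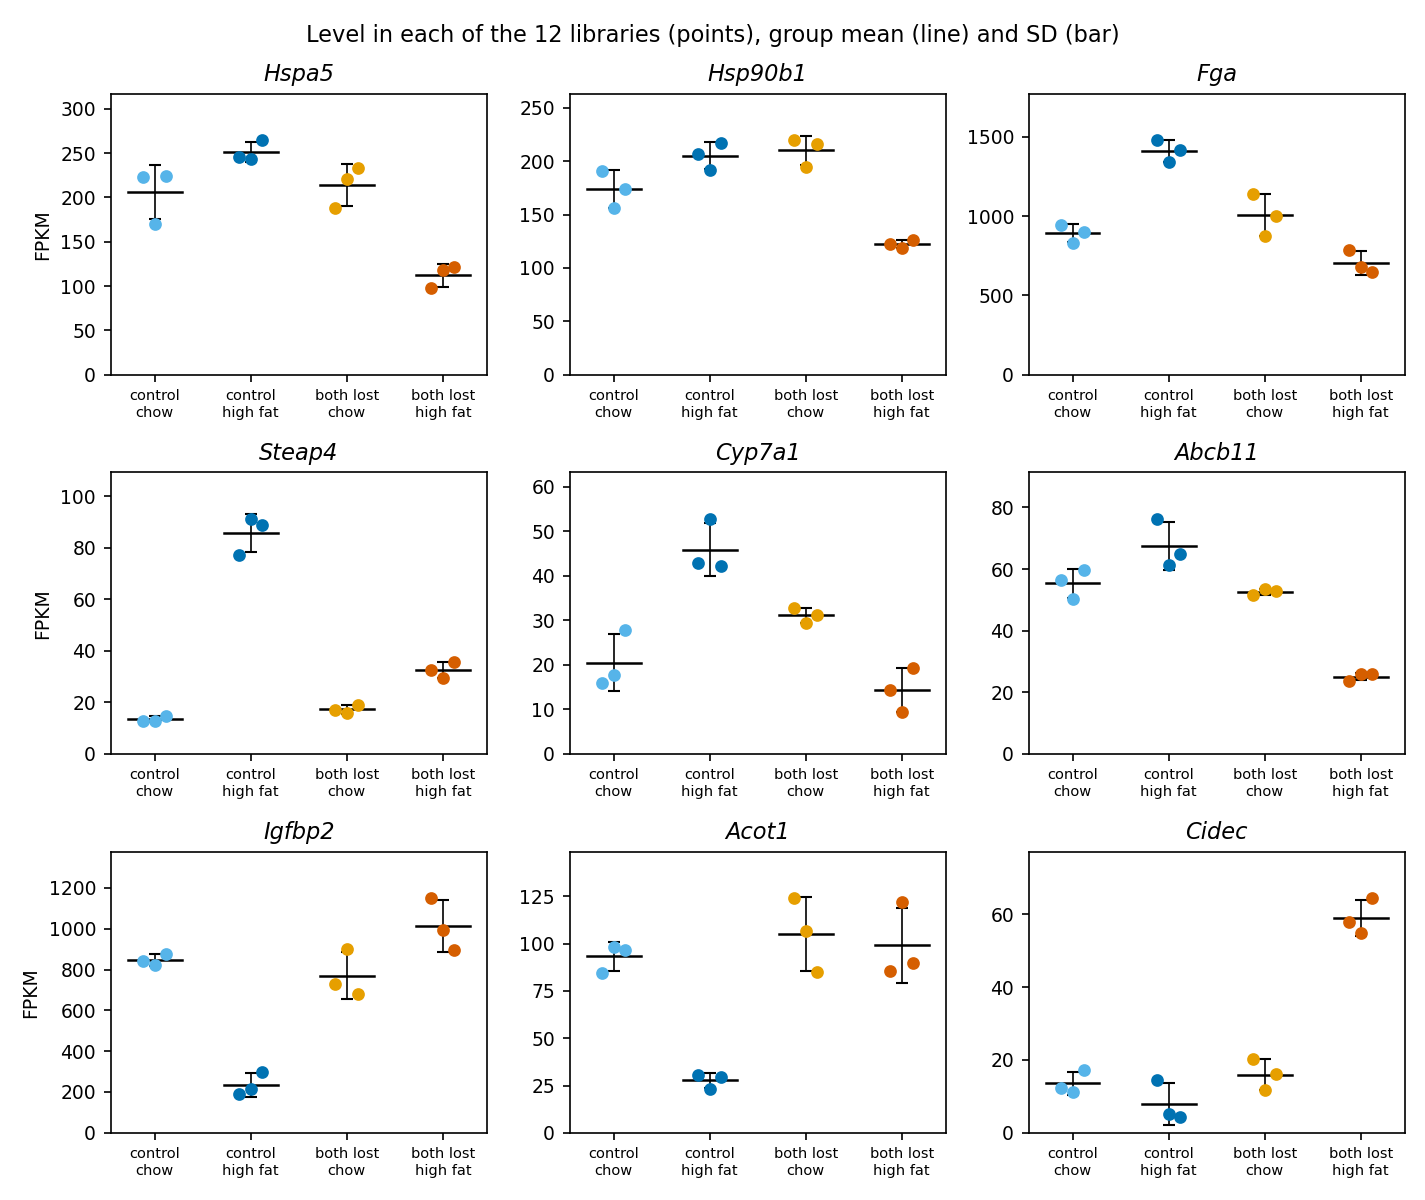
FPKM (vertical axis, from 0) of 9 genes in the 12 libraries, by genotype and diet; points are libraries, lines group means and bars the SD of 3 libraries. Hspa5, Hsp90b1, Fga and Abcb11 were lowest in double-deficient livers on high fat, Cyp7a1 was highest in control on high fat, Steap4 rose most in control on high fat, Igfbp2 and Acot1 were low only in control on high fat, and Cidec was high only in double-deficient livers on high fat.

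Bile acid genes gave 8 lower and 2 higher of 25 tested (7 and 1 in both analyses), with 5 lower without control high fat replicate 3 and 1 higher in 8 of the 12 analyses with 1 library left out. Cyp7a1, whose product starts the classical route from cholesterol to bile acids, stood at 15.9, 17.6 and 27.8 FPKM on chow and 42.8, 52.7 and 42.2 on high fat in control, and 32.8, 29.4 and 31.2 on chow and 14.3, 9.36 and 19.2 on high fat in double-deficient livers. High fat raised it in control to the highest values of the 12 libraries, and lowered it in double-deficient livers (interaction -2.29 ± 0.51, adjusted p = 0.00263, 0.00815 with the length trend removed). Abcb11, the bile salt export pump, stood at 56.3, 50.1 and 59.6 FPKM on chow and 76.1, 61.2 and 64.8 on high fat in control, and 51.4, 53.5 and 53 on chow and 23.6, 25.8 and 25.8 on high fat in double-deficient livers. The double-deficient libraries on high fat stood at less than the lowest of the others, 50.1 FPKM (interaction -1.32 ± 0.15, adjusted p = 1.44e-05). Abcc2, the export pump for bilirubin conjugates, had an interaction of -1.84 ± 0.30 (adjusted p = 0.000219). Slco1b2, an uptake transporter, rose in control and not by a called amount without the kinases (0.77 against 0.031, interaction -0.73 ± 0.20). Baat, which conjugates bile acids (-0.53), and Acox2, which shortens their side chain (-0.46), were lower in both analyses. Amacr, a racemase of the same peroxisomal step, was higher (0.65 ± 0.12, adjusted p = 0.00062).

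Genes of fatty acid oxidation and other PPARα targets moved upward in the interaction. Of 46 loci tested, 26 were higher and 2 lower, 16 and 1 of them in both analyses (15.8% and 18.9% of all loci as deposited, 6.44% and 7.66% in both). The count of higher loci was 16 when both libraries with muscle or pancreatic transcripts were left out, 16 with quantile normalization and 17 with length and GC trends removed. The median change on high fat was -0.196 in control and 0.292 in double-deficient livers. Acot1, a cytosolic acyl-CoA thioesterase, stood at 84.7, 98.5 and 96.8 FPKM on chow and 30.8, 23.3 and 29.3 on high fat in control, and 124, 107 and 85.2 on chow and 85.4, 122 and 89.7 on high fat in double-deficient livers. Only control libraries on high fat were low, so that the response was lost (interaction 1.63 ± 0.26, adjusted p = 0.000178). Acot2, its mitochondrial counterpart, was reversed, from 10.2, 10.3 and 10.8 to 7.51, 6.01 and 5.52 FPKM in control and from 10, 8.59 and 7.05 to 12.9, 14.3 and 17.8 without the kinases (interaction 1.39 ± 0.21, adjusted p = 0.000129). Acyl-CoA thioesterases of this family lie close together in the genome and are alike in sequence, so that reads can be split between them in ways not given here.

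In the β-oxidation chain itself, Eci1, a mitochondrial enoyl-CoA isomerase, stood at 173, 172 and 173 FPKM on chow and 163, 168 and 188 on high fat in control, and 159, 137 and 153 on chow and 273, 323 and 342 on high fat in double-deficient livers. The double-deficient libraries on high fat were the highest, with no overlap (interaction 1.05 ± 0.16, adjusted p = 0.000117). Acaa1a, a peroxisomal thiolase (0.82 ± 0.13, adjusted p = 0.000174), Hadhb, the thiolase subunit of the mitochondrial trifunctional protein (0.96 ± 0.18, adjusted p = 0.000619), Acads, the short-chain acyl-CoA dehydrogenase (0.75 ± 0.15), Crat, carnitine acetyltransferase (0.71 ± 0.19), and Decr1, 2,4-dienoyl-CoA reductase (0.52 ± 0.14), were higher in both analyses. Acadl (0.31 with the length trend removed, adjusted p = 0.164), Acadm (adjusted p = 0.133), Ech1 (adjusted p = 0.175) and Fabp1 (adjusted p = 0.0572) were higher only as deposited. Ppara itself went the opposite way from its targets. It stood at 36.9, 34.4 and 38.5 FPKM on chow and 49.4, 42.2 and 50.2 on high fat in control, and 37.3, 41.1 and 44.2 on chow and 28.8, 25.9 and 32.4 on high fat in double-deficient livers. Control libraries rose on high fat and double-deficient libraries fell below all others (interaction -0.84 ± 0.16, adjusted p = 0.000583, 0.00171 with the length trend removed). Fgf21, the fasting hormone driven by PPARα and by ATF4, stood at 8.84, 8.21 and 11.4 FPKM on chow and 6.29, 10.4 and 15.4 on high fat in control, and 12.6, 12.2 and 6.36 on chow and 39.5, 44.8 and 54.2 on high fat in double-deficient livers. All double-deficient libraries on high fat were above all others (interaction 2.00 ± 0.67, adjusted p = 0.029), but the call was lost with the length trend removed (adjusted p = 0.139) and without double-deficient chow replicate 3, control chow replicate 3, control high fat replicate 1, or double-deficient high fat replicate 2 or 3. The PPARα response element written as a strict repeat of AGGTCA with 1 base between the copies, searched on both strands, was in none of the 35 group members with a RefSeq window and in 0.0481% of all genes.

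Ketone body synthesis gave 3 higher of 6 tested, all in both analyses. Bdh1, which makes 3-hydroxybutyrate, stood at 68.6, 62.3 and 63.8 FPKM on chow and 79.2, 65.2 and 94.1 on high fat in control, and 59.5, 68.5 and 60.2 on chow and 138, 149 and 178 on high fat in double-deficient livers. No library outside double-deficient livers on high fat exceeded 94.1 FPKM (interaction 1.01 ± 0.17, adjusted p = 0.000265). Acat1, the mitochondrial acetoacetyl-CoA thiolase, had an interaction of 0.67 ± 0.18 (adjusted p = 0.00675). It was not called with quantile normalization.

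Lipid droplet and lipolysis genes gave 5 higher and 0 lower of 17 (2 higher in both analyses). Cidec, which drives fusion of lipid droplets and marks fatty liver, stood at 12.3, 11.3 and 17.2 FPKM on chow and 14.5, 5.03 and 4.33 on high fat in control, and 20.2, 11.7 and 16.2 on chow and 57.8, 54.9 and 64.4 on high fat in double-deficient livers. The lowest double-deficient library on high fat was far above the highest of the others, 20.2 FPKM (interaction 2.71 ± 0.55, adjusted p = 0.00166). Mgll, monoacylglycerol lipase, on high fat measured 73.4, 62.8 and 81.6 FPKM in control livers against 127, 128 and 142 in double-deficient livers (interaction 0.81 ± 0.14, adjusted p = 0.000307). Plin2, the coat protein of hepatic droplets (0.85 ± 0.25), and G0s2, an inhibitor of lipolysis (1.77 ± 0.46), were called only as deposited (adjusted p = 0.103 and 0.0778 with the length trend removed). Adipocyte marker transcripts, summed over 10 genes, reached 1282, 809.6 and 1082 FPKM in control livers on high fat against 352, 496 and 732 in double-deficient livers, and 83.3 to 309 on chow. Only 4 of these 10 genes reached the mean of 1 FPKM needed for testing, and Adipoq, Lep and Plin1 did not. The sums therefore rest on few members and do not by themselves show adipose tissue. Their part in these results was not tested.

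Of 13 genes of fatty acid uptake and binding, 4 were higher and 2 lower, against 15.8% and 18.9% of all loci. In both analyses 1 was higher and 1 lower, near the shares of all loci (6.44% and 7.66%). Slc27a1, a fatty acid transport protein, was reversed, from 13.5, 10.3 and 10.8 to 8.7, 5.42 and 7.1 FPKM in control and from 8.84, 10.4 and 9.48 to 22.5, 13.9 and 15.9 without the kinases (interaction 1.42 ± 0.30, adjusted p = 0.00169). Lrp1, a receptor for lipoprotein remnants, went the other way (interaction -1.51 ± 0.22, adjusted p = 9.08e-05), with 94.9, 74 and 72.7 FPKM in control and 30.9, 27 and 27.9 in double-deficient livers on high fat.

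Apolipoproteins and genes of very low density lipoprotein assembly gave 7 higher and 2 lower of 16, of which 2 and 1 in both analyses. Apoa4, an apolipoprotein known to follow hepatic triglyceride, stood at 109, 154 and 170.1 FPKM on chow and 281, 146 and 146 on high fat in control, and 242, 171 and 220 on chow and 1352, 1184 and 1699 on high fat in double-deficient livers. The highest of the other 9 libraries was at 281 FPKM (interaction 2.38 ± 0.61, adjusted p = 0.00676). Gm10680 (chr9:46242621-46243529 in mm10), which is annotated antisense to Apoa4 (chr9:46240844-46243458) and overlaps it, reached 2900, 2843 and 3599 FPKM in double-deficient livers on high fat (interaction 2.59 ± 0.61). Without stated use of strand in the counting, reads of this pair cannot be told apart. Apob, the very long transcript of the structural protein of these particles, was lower (-1.94 ± 0.22, adjusted p = 1.54e-05, and -1.14, adjusted p = 4.94e-05, with the length trend removed). Apoa5, an activator of lipoprotein lipase, fell on high fat in control and rose without the kinases (interaction 0.90 ± 0.19, adjusted p = 0.00165). The short transcripts Apoa1, Apoa2, Apoc3, Apoe and Apom were higher as deposited only.

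De novo lipogenesis gave 8 lower and 2 higher of 17 (4 and 0 in both analyses), with 5 lower without double-deficient chow replicate 3. Fasn, fatty acid synthase, stood at 10.1, 8.61 and 6.68 FPKM on chow and 9.92, 9.89 and 10.4 on high fat in control, and 7.25, 9.01 and 10.3 on chow and 2.73, 2.06 and 3.4 on high fat in double-deficient livers. Again the double-deficient libraries on high fat formed the low group, without overlap (interaction -1.65 ± 0.24, adjusted p = 9.85e-05, 0.0148 with the length trend removed). Acaca, acetyl-CoA carboxylase, had an interaction of -1.44 ± 0.17 (adjusted p = 1.55e-05) and Acss2, an acetyl-CoA synthetase, of -0.65 ± 0.18 (adjusted p = 0.0105). Pklr, the liver pyruvate kinase, rose on high fat in control from 22.7, 26.9 and 15.4 to 42.3, 36.6 and 50.2 FPKM and went from 23, 22.3 and 21.7 to 11.9, 17.2 and 24.4 without the kinases (interaction -1.34 ± 0.39, adjusted p = 0.0127). Srebf1, the transcription factor SREBP1, rose in control from 10.8, 7.03 and 7.92 to 25.9, 24 and 39.6 FPKM and was at 6.6, 8.61 and 9.92 in double-deficient livers on high fat, with no overlap on that diet (interaction -1.43 ± 0.44, adjusted p = 0.0186, but 0.0673 with the length trend removed). Scd1, stearoyl-CoA desaturase, on high fat measured 964, 398 and 597 FPKM in control livers against 20.3, 52 and 122 in double-deficient livers, a spread of several fold among the latter (interaction -3.03 ± 1.12, adjusted p = 0.0465, and 0.0992 with the length trend removed).

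Triglyceride synthesis gave 3 higher and 4 lower of 14, against 15.8% and 18.9% of all loci. In both analyses 1 was higher and 2 lower, against 6.44% and 7.66% of all loci. Gpam, the glycerol-3-phosphate acyltransferase of mitochondria, on high fat measured 25.2, 21.2 and 25.4 FPKM in control livers against 8.14, 5.68 and 13.8 in double-deficient livers (interaction -1.36 ± 0.32, adjusted p = 0.00297). Agpat6 fell on high fat in control and not by a called amount without the kinases (interaction 0.86 ± 0.17, adjusted p = 0.000807). Cholesterol synthesis under SREBP2 gave 3 higher and 5 lower of 24, with 0 and 2 in both analyses. The counts as deposited were near the shares of all loci (15.8% and 18.9%), as was the lower count in both analyses (7.66%). The higher count was 1 without double-deficient chow replicate 3 or high fat replicate 2. The lower count was 2 without control chow replicate 3, control high fat replicate 3 or double-deficient chow or high fat replicate 2, and 3 without control chow replicate 2, double-deficient chow replicate 3 or double-deficient high fat replicate 1. Stard4, a sterol transport protein, was lower (-1.40 ± 0.36, adjusted p = 0.006), as was Dhcr7, the last enzyme of cholesterol synthesis (-0.63 ± 0.22, adjusted p = 0.0315).

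Insulin and IGF signalling gave 2 higher and 9 lower of 23 as deposited, and 4 higher without control high fat replicate 3. With the length trend removed 5 were higher and 2 lower, and the median interaction went from -0.188 to 0.0892. In both analyses 2 were higher and 2 lower, near the shares of all loci (6.44% and 7.66%). Insr, the insulin receptor, stood at 17.1, 16.5 and 17.1 FPKM on chow and 21.1, 16.7 and 19.9 on high fat in control, and 16.7, 18.5 and 18.1 on chow and 7.25, 4.94 and 7.92 on high fat in double-deficient livers. On high fat the double-deficient libraries did not overlap with any other group (interaction -1.48 ± 0.21, adjusted p = 8.13e-05, 0.00078 with the length trend removed). Pik3r1, the regulatory subunit of phosphoinositide 3-kinase, rose on high fat in control from 7.28, 7.44 and 9.24 to 20.1, 16.8 and 20.4 FPKM and was at 4.97, 5.34 and 7.71 in double-deficient livers on that diet (interaction -1.61 ± 0.26, adjusted p = 0.000196). Socs2, an inhibitor of growth hormone signalling, fell in control from 8.05, 11.6 and 8.13 to 2.95, 2.49 and 3.47 FPKM and was at 6.21, 6.94 and 5.73 in double-deficient livers on high fat (interaction 1.49 ± 0.41, adjusted p = 0.0101). The long transcripts Gsk3b, Pik3ca, Foxo1, Foxo3, Irs1 and Stat5b were lower as deposited and not called with the length trend removed. Of 21 genes of gluconeogenesis and glycolysis 3 were lower and 0 higher as deposited, no more than the shares of all loci (18.9% and 15.8%), and 2 were lower in both analyses. Pygl, the liver glycogen phosphorylase, was reversed, from 74.5, 79.7 and 74.5 to 109, 96.5 and 113 FPKM in control and from 71.1, 72.7 and 72 to 39.3, 46.4 and 50.8 without the kinases (interaction -1.13 ± 0.20, adjusted p = 0.000369).

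Interferon-stimulated genes rose with the diet in both genotypes, 22 of 24 in control and 17 of 24 in double-deficient livers, while in the interaction 3 were higher and 5 lower, 2 and 2 in both analyses, near the shares of all loci (15.8% and 18.9%). Ifih1, the RNA sensor MDA5, on high fat measured 7.11, 7.69 and 7.47 FPKM in control livers against 3.59, 3.19 and 4.07 in double-deficient livers (interaction -0.91 ± 0.17, adjusted p = 0.000608). Outside the list, the antiviral gene Samd9l (-0.93 ± 0.18) and, as deposited, Irgm1, an immunity-related GTPase (-0.67 ± 0.19), also rose in both genotypes and less without the kinases. Irf7 went the other way, with 23.2, 34.2 and 28.4 FPKM in control and 36.3, 41.1 and 35.3 in double-deficient livers on high fat (interaction 0.92 ± 0.25, adjusted p = 0.00858), as did Oas1a, an RNA-dependent synthetase (0.92 ± 0.18, adjusted p = 0.000937). With GC as well as length trends removed no member of the group was called lower, Irf7 was not called higher, and Samd9l was not called.

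Drug metabolism under the receptors CAR and PXR gave 2 higher and 6 lower of 26, all 8 in both analyses. Over all loci 15.8% were higher and 18.9% lower as deposited, and 6.44% and 7.66% in both analyses. Cyp3a11, the main CYP3A enzyme of mouse liver, stood at 2184, 1884 and 1764 FPKM on chow and 246, 133 and 166 on high fat in control, and 829, 1385 and 1158 on chow and 191, 409 and 530.5 on high fat in double-deficient livers. High fat lowered it in both genotypes, and on chow the double-deficient libraries lay below the controls (loss on chow adjusted p = 0.274) (interaction 1.79 ± 0.41, adjusted p = 0.003). Cyp2f2 fell in both genotypes and further without the kinases, to 194, 169.7 and 164 FPKM against 369, 276 and 351 in control (interaction -0.89 ± 0.18, adjusted p = 0.000857). Cyp1a2 fell only in double-deficient livers (-1.65 against -0.16 in control, interaction -1.49 ± 0.47, adjusted p = 0.0195). Cyp3a13 was reversed (-0.85 ± 0.17, adjusted p = 0.000859), and Sult5a1, a sulfotransferase, was higher (1.25 ± 0.34, adjusted p = 0.0086). Members of the Cyp2c and Cyp3a families share sequence, and reads can be split between them.

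Among glutathione transferases and NRF2 targets 4 were higher and 0 lower of 21, 2 in both analyses, near the 15.8% of all loci that were higher. The lower count was 2 without control high fat replicate 2 or double-deficient high fat replicate 3. Gstt2, a theta class transferase, stood at 78.8, 67.7 and 71.8 FPKM on chow and 44.6, 47.1 and 49.7 on high fat in control, and 89.3, 71.7 and 74.8 on chow and 138, 138 and 141 on high fat in double-deficient livers. High fat lowered it in control and raised it without the kinases, and the genotypes did not overlap on that diet (interaction 1.44 ± 0.15, adjusted p = 6.05e-06). Amino acid catabolism and the urea cycle gave 4 higher and 6 lower of 33 (1 and 5 in both analyses), near the shares of all loci (15.8% and 18.9%). Cps1, which starts the urea cycle, is listed at 2 loci. The less abundant of them measured 392, 359 and 371 FPKM in control livers on high fat against 148, 69.9 and 86.7 in double-deficient livers (interaction -2.28 ± 0.42, adjusted p = 0.000597), and the interaction of the other was -0.28 (adjusted p = 0.655). Uroc1, an enzyme of histidine breakdown, was reversed (-1.07 ± 0.19, adjusted p = 0.000321), and Hal, histidine ammonia lyase, fell in both genotypes and further without the kinases (-0.98 ± 0.23, adjusted p = 0.00297). Hlf, a clock output factor of the PAR bZip family, was reversed, from 11.3, 10.5 and 10.8 to 18.9, 16.3 and 18.3 FPKM in control and from 11.1, 13.9 and 15.4 to 6.84, 7.44 and 8.88 without the kinases (interaction -1.40 ± 0.19, adjusted p = 6.96e-05). It was the 1 of 19 clock genes lower in both analyses, of 3 lower as deposited. Over all loci 7.66% were lower in both analyses and 18.9% as deposited. The clock count as deposited was 6 without control chow replicate 1 and 5 without control high fat replicate 2 or double-deficient chow replicate 1.

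The counts of several groups made of short or long transcripts depended on the length trend. Oxidative phosphorylation subunits, with a median transcript length of 1062 bases, gave 33 higher and 1 lower of 52 as deposited, 12 and 1 in both analyses, and 4 and 3 with length and GC trends removed, and their median interaction went from 0.613 to 0.16. Proteasome subunits gave 17 higher of 31 as deposited and 9 in both analyses, and their median went from 0.409 to 0.0427. The kinases and phosphatases of the JNK pathway, with a median of 5104 bases, gave 7 lower and 0 higher of 13 as deposited, 0 lower and 1 higher with the length trend removed, and 0 in both analyses. The former count was 3 without double-deficient high fat replicate 2 and 4 without control chow replicate 1 or 2, control high fat replicate 1 or double-deficient chow replicate 2. AP-1 and immediate early genes, the classical transcription factor targets of JNK, gave 1 higher and 1 lower of 14, and 0 in both analyses. The AP-1 site TGANTCA, searched on both strands, was in none of the 11 members with a RefSeq window and in 8.97% of all genes.

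Some markers of cells in which AlbCre is silent were called in the interaction as well. Over all loci 15.8% were higher and 18.9% lower as deposited, and 6.44% and 7.66% in both analyses. In whole liver RNA, a change in the number of cells of a type cannot be told apart from a change of RNA per cell. Macrophage and Kupffer cell markers, summed over 22 genes, were at 286 to 437 FPKM in control on chow, 524 to 605 in control on high fat, 301 to 329 in double-deficient livers on chow and 767 to 942 in double-deficient livers on high fat. Of 20 tested, 8 were higher and 1 lower as deposited. In both analyses 1 was higher, near the 6.44% of all loci, and 0 were higher with length and GC trends removed. The higher count was 4 without control chow replicate 2, 5 without control chow replicate 3 and 5 without control high fat replicate 1. C1qa, a complement subunit made by macrophages, stood at 31.9, 43 and 39.4 FPKM on chow and 47.3, 58.3 and 58.7 on high fat in control, and 26, 28.7 and 27.1 on chow and 100.4, 103 and 88.2 on high fat in double-deficient livers, highest in all double-deficient libraries on high fat (interaction 1.28 ± 0.23, adjusted p = 0.000327, 0.0268 with the length trend removed). Markers of lipid-associated macrophages gave 8 higher of 11, 3 in both analyses, and 5 without double-deficient high fat replicate 2 or 4 without the libraries with muscle and pancreatic transcripts. Within the double-deficient high fat group, replicate 1 was far below replicates 2 and 3: Trem2 stood at 2.95, 12.4 and 15.7 FPKM, Gpnmb at 0.949, 19.3 and 20 and Mmp12 at 0.956, 9 and 14.7. Lgals3, galectin 3, followed the same order, with 9.79, 32.8 and 41 FPKM (interaction 1.89 ± 0.51, adjusted p = 0.00897).

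Sinusoidal endothelial markers summed to 157 to 187 FPKM in double-deficient livers on high fat and 110 to 132 in the other groups. Of 16 tested, 5 were higher and 1 lower as deposited, 5 and 0 in both analyses. The higher count as deposited was 3 in 8 of the 12 analyses with 1 library left out. The lower count was 2 without control high fat replicate 2 or double-deficient high fat replicate 3. The median interaction was 0.0944, and between genotypes on high fat 4 were higher and 4 lower. Egfl7, a secreted vascular factor, on high fat measured 7.51, 9.46 and 8.46 FPKM in control livers against 19, 25 and 25.2 in double-deficient livers (interaction 1.51 ± 0.20, adjusted p = 4.07e-05). Clec4g, a lectin of sinusoidal endothelium, was at 27.5, 36.3 and 34.2 and 51, 57 and 64.3 FPKM (interaction 0.89 ± 0.17, adjusted p = 0.000583). Stellate cell and fibroblast markers summed to 246 to 364 FPKM in double-deficient livers on high fat and 157 to 258 in the other groups. Of 18 tested, 3 were higher and 1 lower, 0 and 1 in both analyses. Over all loci 15.8% were higher and 18.9% lower as deposited, 6.44% and 7.66% in both. The higher count was 5 without control chow replicate 1, 6 without double-deficient high fat replicate 1, 1 without control high fat replicate 1 or double-deficient high fat replicate 2 or 3, and 0 without both libraries with muscle or pancreatic transcripts. Hgf, hepatocyte growth factor from stellate cells, was the lower one (-0.88 ± 0.21, adjusted p = 0.00359). Markers of T, B and NK cells summed to 127 to 179 FPKM against 55.9 to 109. The part of these cell populations in the other gene groups was not tested.

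Mice that lacked only JNK1 or only JNK2 show how far the response without both differs from that without either. The change on high fat in double-deficient livers differed from that in JNK1-deficient livers at 4491 loci (42.5%, 20.2% higher and 22.3% lower, and 2530, or 24.8%, with the length trend removed) and from that in JNK2-deficient livers at 3004 loci (28.4%, 10.2% higher and 18.3% lower, and 884, or 8.67%, with the trend removed). The latter count was 1990 without double-deficient chow replicate 2, 1933 without JNK2-deficient chow replicate 3 and 1866 without double-deficient high fat replicate 2. Its share of higher calls was 35.7% as deposited, 50.7% with size factors and 55.1% with the length trend removed, which shifted its median by 0.104. These comparisons share the double-deficient libraries with each other and with the interaction, so values are given side by side.

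As deposited, several gene groups had median changes on high fat in JNK1-deficient livers near those of control. In JNK2-deficient livers the medians were nearer to those without both. The JNK2-deficient libraries had a rho with length of -0.132, -0.253 and 0.228 on high fat against 0.31, 0.329 and 0.165 on chow. How far their medians follow length was not tested. Over all loci the medians were 0.0351 in control, 0.037 without JNK1, 0.1 without JNK2 and 0.0315 without both. ER chaperones had medians of 0.271 in control, 0.243 without JNK1, -0.175 without JNK2 and -0.377 without both. Against JNK1 loss 13 of 23 were lower (22.3% of all loci), 11 in both analyses. Against JNK2 loss 5 were lower, near the 18.3% of all loci, and 1 was higher. In both analyses 2 were lower against JNK2 loss (3.23% of all loci). For acute phase genes the medians were 0.451, 0.46, -0.457 and 0.162. The double-deficient response was lower than that without JNK1 at 8 of 27 loci, 7 in both analyses, and higher at 2, 1 in both analyses. Over all loci 22.3% were lower and 20.2% higher. Against JNK2 loss 5 acute phase loci were higher and 0 lower (10.2% and 18.3% of all loci), none of which was called in both analyses. PPARα targets had medians of -0.196, -0.11, 0.39 and 0.292. Of these 46 loci, 20 were higher and 3 lower than without JNK1 (20.2% and 22.3% of all loci). Against JNK2 loss 2 were higher and 15 lower (10.2% and 18.3% of all loci). In both analyses these counts were 9 and 3 against JNK1 loss and 0 and 8 against JNK2 loss. Complement and coagulation genes had medians of 0.31, 0.288, -0.136 and -0.271. Of 28, 14 were lower and 1 higher than without JNK1 (13 and 0 in both analyses). Against JNK2 loss 5 were higher and 1 lower (4 and 0 in both). Cholesterol synthesis genes departed from this, with medians of 0.065, 0.54, -0.615 and -0.381. Of 24, 10 were lower and 2 higher than without JNK1, 8 and 0 in both analyses. In other groups the JNK2-deficient median lay near that of control: de novo lipogenesis had 0.169, 0.217, 0.095 and -0.38 in the same order, oxidative phosphorylation 0.0118, -0.125, 0.0483 and 0.559, apolipoproteins 0.0778, 0.0357, 0.00104 and 0.568, and the proteasome -0.095, -0.195, -0.00764 and 0.441.

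**Figure D4:**
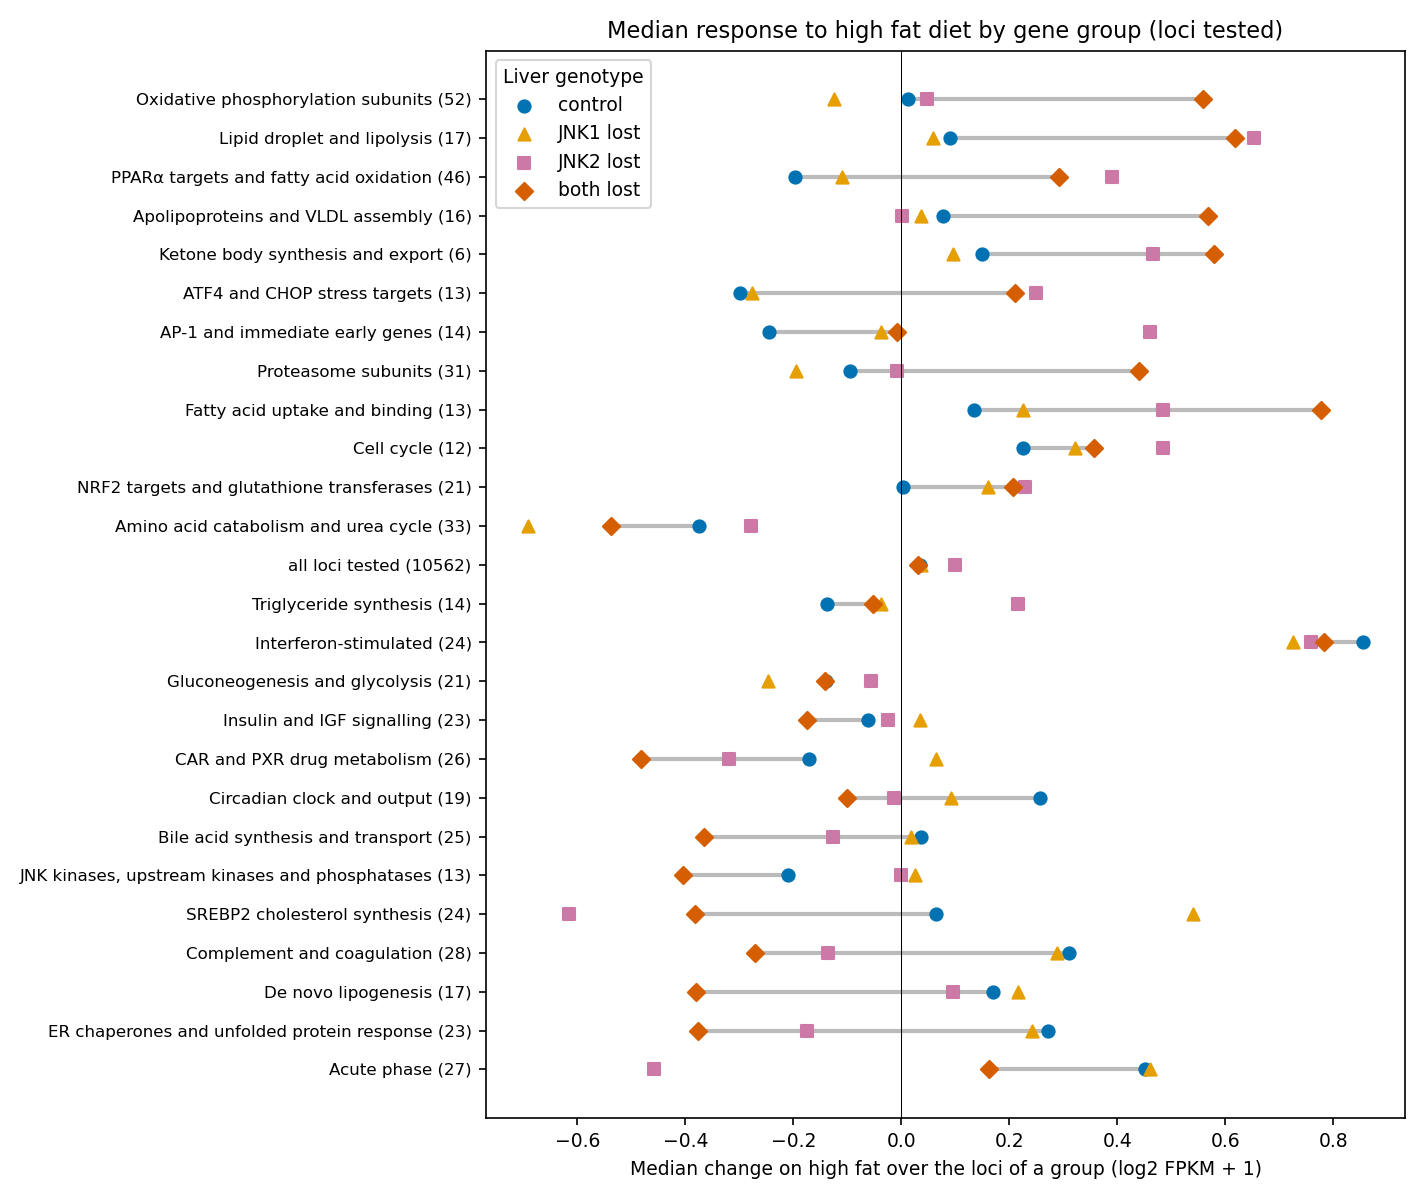
Median change on high fat (log2 FPKM + 1, horizontal axis) of the gene groups (vertical axis, number of loci tested in parentheses) in control (circle), JNK1-deficient (triangle), JNK2-deficient (square) and double-deficient livers (diamond); grey lines join control and double-deficient medians, and groups are ordered by their median interaction. ER chaperones run from 0.271 to -0.377 and PPARα targets from -0.196 to 0.292 between control and double-deficient livers.

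For single genes the same values differed from member to member. The change of Cidec on high fat was -0.86 ± 0.39 in control, -0.41 ± 0.39 without JNK1, 2.64 ± 0.39 without JNK2 and 1.85 ± 0.39 without both, a difference of 2.25 ± 0.55 from JNK1 loss (adjusted p = 0.00384) and -0.79 ± 0.55 from JNK2 loss (adjusted p = 0.291). That of Fga was 0.66 ± 0.16, 0.71 ± 0.16, -0.44 ± 0.16 and -0.51 ± 0.16 in the same order (adjusted p = 0.000367 against JNK1 loss and 0.837 against JNK2 loss). That of Igfbp2 was -1.88 ± 0.30, -2.17 ± 0.30, -0.29 ± 0.30 and 0.40 ± 0.30 (adjusted p = 0.000167 and 0.238). The tests against JNK2 loss that missed the threshold do not show equal responses: the difference for Igfbp2 was 0.69 ± 0.43. Other genes differed from both single losses. Ppara changed by 0.36 ± 0.11 in control, 0.54 ± 0.11 without JNK1 and 0.31 ± 0.11 without JNK2, and by -0.48 ± 0.11 without both (adjusted p = 6.39e-05 and 0.00279, and 0.00025 and 0.0187 with the length trend removed). Gstt2 changed by -0.61 ± 0.11, -0.73 ± 0.11, -0.24 ± 0.11 and 0.82 ± 0.11 (adjusted p = 1.35e-06 and 0.000898, and 2.7e-05 and 0.000971). Ern1 changed by 0.26 ± 0.14, 0.63 ± 0.14, -0.12 ± 0.14 and -1.30 ± 0.14 (adjusted p = 1.78e-06 and 0.00136, and 3.01e-05 and 0.00769). Cyp2f2 changed by -0.47 ± 0.12, 0.086 ± 0.12, 0.28 ± 0.12 and -1.36 ± 0.12 (adjusted p = 1.01e-05 and 5.6e-05, and 1.11e-05 and 6.66e-05). Acot2 rose most without JNK2, by 1.36 ± 0.15, against 0.74 ± 0.15 without both (adjusted p = 0.0366, and 0.0674 with the length trend removed).

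**Figure D5:**
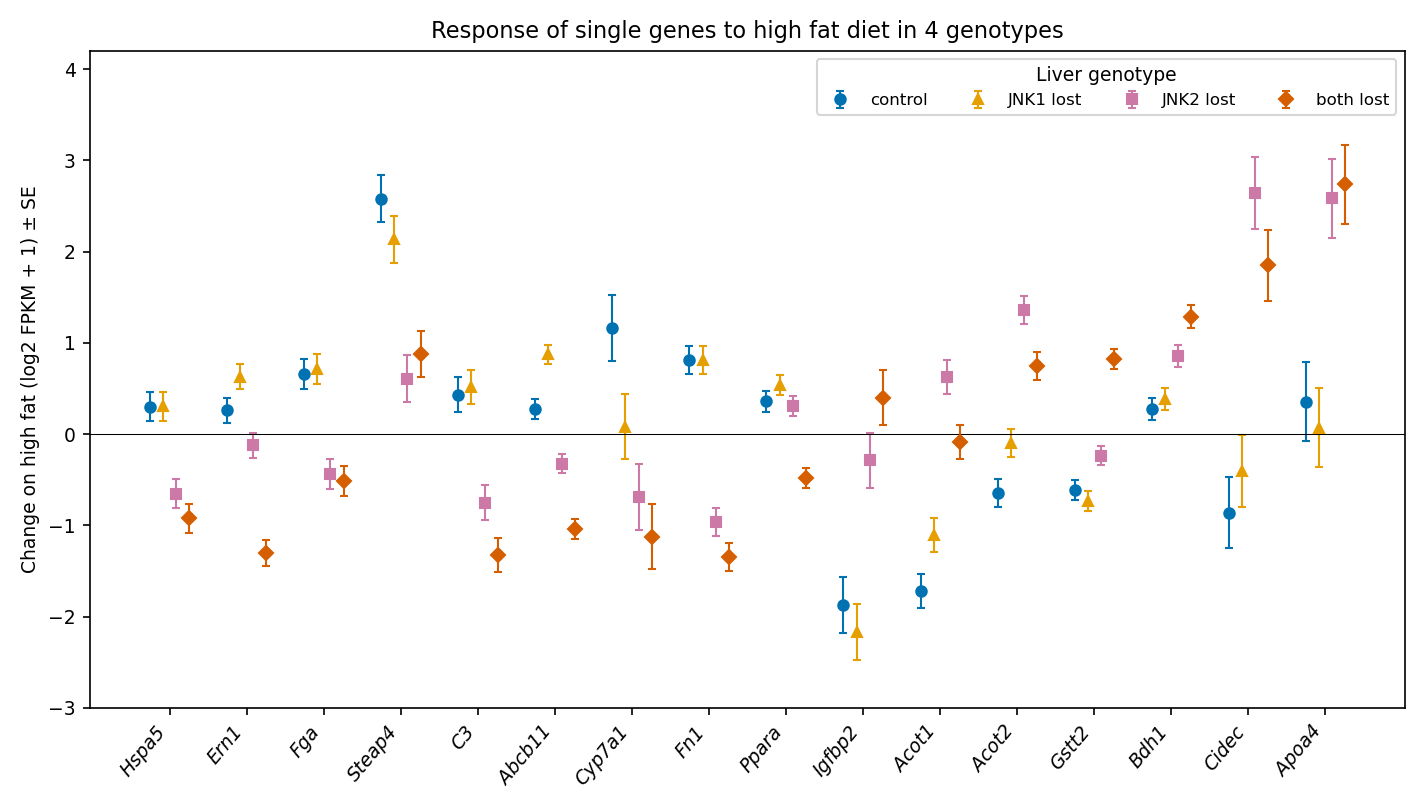
Change on high fat (log2 FPKM + 1, vertical axis) of 16 named genes (horizontal axis) in control, JNK1-deficient, JNK2-deficient and double-deficient livers; points are estimates and bars their SE, from 3 libraries per diet and genotype. Fn1 rose in control and JNK1-deficient livers and fell in JNK2-deficient and double-deficient livers, whereas Ppara rose in the first 3 genotypes and fell in double-deficient livers.

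Few loci of the interaction differed between genotypes on chow. The 6 loci called both on chow and in the interaction were Mapk9, Slc16a5, Pttg1, 2510049J12Rik, Bcl7c and Jund, all lower on chow in double-deficient livers, and named after their values were seen. Of these, Slc16a5 alone kept its interaction call with the length trend removed, and adjusted p was then 0.0781 for Pttg1, 0.837 for 2510049J12Rik, 0.242 for Bcl7c and 0.116 for Mapk9. Pttg1, the separase inhibitor securin, stood at 30.9, 32.3 and 26.1 FPKM on chow and 28.7, 27.1 and 28.4 on high fat in control, and 1.53, 2.21 and 1.81 on chow and 3.71, 3.1 and 5.46 on high fat in double-deficient livers. Its level was thus low in double-deficient mice on either diet, and what lowered it in this genotype was not tested. Jund, an AP-1 subunit, fell on high fat in control from 56, 43.5 and 46.6 to 28.1, 24.2 and 30.3 FPKM and was already at 21.5, 24.5 and 20.8 on chow without the kinases (interaction 0.67 ± 0.22, adjusted p = 0.0217, not called with the length trend removed at 0.314).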

How the data were processed

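Values were the FPKM per locus that the authors deposited in 1 table of 24 libraries and 31027 loci. TopHat, Cufflinks, Cuffdiff and the mm10 genome are named in the submitters' processing notes, without versions. The table keeps no read counts, so absolute depth is unknown, and relative depth read from the steps of low values spanned 0.308 to 1. The labels name RNeasy extraction and Illumina sequencing.

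Tests covered the 10562 loci whose mean reached 1 FPKM, on log2(FPKM + 1), a scale that understates changes of low genes, using limma (version 3.58.1, R 4.3.3, trend and robust options) in 1 fit of 24 libraries and 8 groups. P-values were adjusted by Benjamini-Hochberg within each comparison and called under 0.05. All adjusted p-values and SE in the text are from limma. For the second analysis, each library's deviation from the mean of all libraries was smoothed with loess (span 0.5) on the length of the longest coding transcript, known for 10193 loci, and the trend subtracted. The interaction fit, with and without removal of the length trend, was tested on simulated data. The simulated trend was itself a loess curve of the observed interaction on length, with the same span, and no GC trend was added. The low count with removal therefore holds for a trend of that form and does not show what remains in the libraries. In data given a length trend, the fit without its removal called 1951 of 9993 unchanged loci (19.5%). With removal it called 9 (0.0901%). In data without a trend it called 3 (0.03%) either way. Of loci changed by 1 on the log2 scale, 77% to 83% were recovered. Of loci changed by 0.5, 19% to 21% were recovered, and 41% where the trend was left in. Exact zeros in 16 well expressed loci were kept as deposited.

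Named genes are Mapk8, Mapk9, Ppara, Fgf21 and, among 1188 single-name loci called in both analyses and with each of the 12 libraries left out, up to 6 per class by size with no overlap between genotypes on high fat and up to 4 per gene list by p, which gave 103. Other list members are named to account for a list, and some genes are not reported here. The members and lists were chosen with earlier results of these data known. Same-numbered libraries did not deviate together (18 pairs, r from -0.146 to 0.207, 2 above 0.1), so numbers were not used as pairs. Alternatives were other scalings, filters, pseudocounts, samples in the fit, weights, a GC trend, a replicate block and leaving out libraries. Leaving out control chow replicate 3 and double-deficient high fat replicate 3 together was chosen after seeing the data. Promoter windows come from RefSeq (GRCm38.p6). Python 3.11.15, pandas 2.3.3, NumPy 2.4.6 and matplotlib 3.10.9 were used.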

Additional observations from a re-analysis of the deposited data

Results flagged for a closer look

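Comparisons of one diet response with another stood out by the tests of the difference itself: the response without both kinases differed from that of control at 3664 loci, from that without JNK1 at 4491 and from that without JNK2 at 3004. Within the interaction, 15 of the named genes stood out because the diet moved them in opposite directions in control and double-deficient livers in both analyses. Moved up in control and down without the kinases were Fn1 (-2.15 on the log2 scale), Mug2 (-2.16), Cyp7a1 (-2.29), Gm9766 (-2.15), Hlf (-1.40), Fga (-1.17), Pygl (-1.13), Uroc1 (-1.07), Cyp3a13 (-0.85) and Ppara (-0.84). The opposite held for Ppp1r3g (2.51), Fam195a (1.93), Gstt2 (1.44), Slc27a1 (1.42) and Acot2 (1.39). These 15 are not every reversed gene in the text: Plg and F9, also reversed in both analyses, are not among them. Gm9766 is a predicted gene that stood at 2.7, 3.59 and 3.76 FPKM in control and 0.371, 0.2 and 0.434 FPKM in double-deficient livers on high fat.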

How the results depend on the processing

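The count of interaction loci, 3664, was 2092 with the length trend removed, 1849 with length and GC trends removed and 2029 with the replicate block and the length trend removed. It was 3656 with the replicate block alone, which moved no other count of calls by over 1.5 times, and 2769 to 3866 with 1 library left out. Diet loci in control numbered 3024 with array weights, 1099 without both doubted libraries and 1056 to 1609 with 1 library left out. Without both kinases they numbered 3892 at a mean of at least 5 FPKM and 5015 to 5863 with 1 left out. Loss on chow called 409 with array weights, 9 without both doubted libraries and 9 to 14 with 1 left out. Loss on high fat called 3377 (length), 3355 (length and GC), 3493 (mean of at least 5 FPKM), 3316 (block and length) and 4325 to 5419 with 1 left out. Against JNK1 loss the counts were 2530, 2457 and 2457 (length, length and GC, block and length) and 3793 to 4569 with 1 left out, and against JNK2 loss 884, 985, 752 and 1866 to 3229. Lost loci numbered 593 with weights and 204 to 345 with 1 left out. Reduced loci numbered 12 (mean of at least 5 FPKM), 39 (weights), 36 (only the groups compared) and 14 to 25. Enlarged loci numbered 50, 46, 51 (length, length and GC, block and length), 39 (no filter), 217 (weights), 28 (both doubted libraries out) and 29 to 136. Reversed loci numbered 643 (weights), 121 (block and length) and 90 to 224. Gained loci numbered 1362, 1243, 1319 (length, length and GC, block and length) and 2101 to 3080. Loci with neither response called numbered 112, 94 (length, length and GC), 119 (mean of at least 5 FPKM) and 145 to 214. Of 103 named genes, 19 lost their call with length and GC trends removed, 2 with length alone (Fgf21 and Mapk9). Acat1 and Fgf21 lost it with quantile normalization, Pnldc1 with a pseudocount of 0.1 or 0.01, and Cox6a1, Fgf21, Mapk9 and Stard4 with the block and length trend removed. Low genes and any depth limit could not be judged from FPKM.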
